A study of Homo sapiens with 24 samples.

Results

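The step from 2 to 5 mM butyrate was examined in HCT116 cells depleted of ATP citrate lyase (ACLY) with the small interfering RNA that the labels call siACL. HCT116 is a human colorectal carcinoma cell line. The comparison is of the 3 arrays of siACL cells at 5 mM with the 3 arrays of siACL cells at 2 mM, 6 of the 24 arrays in the series, and all 18172 entries with a gene symbol were tested. Cells of both arms were grown in glucose-containing medium and held for 3 days at their butyrate dose, or without butyrate. The control arm was transfected with siMock, and each arm had 4 dose groups (0, 0.5, 2 and 5 mM) of 3 arrays each, biological replicates by their labels. The depletion is a knockdown by transfection in 1 cell line, so the gene itself is intact and some ACLY remains.

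Butyrate is a short-chain fatty acid that gut bacteria make from dietary fibre. Colonocytes burn it in mitochondria, and butyrate that escapes oxidation inhibits histone deacetylases. ACLY splits exported citrate into cytosolic acetyl-CoA, the building block of fatty acids and cholesterol and the acetyl donor of histone acetyltransferases. The series addresses how these routes to histone acetylation are used by cancer cells, and the step described here is the response to more butyrate where the ACLY route is reduced.

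Each value is a normal score: genes were ranked inside each array and the ranks were put on a bell curve that runs from -3.90 to 3.90, with 0 for the median gene. Differences of scores are therefore shifts in rank, not folds, and shifts common to the whole array are invisible. Differences are 5 mM minus 2 mM, each given with its standard error from a limma fit of 8 group means over 24 arrays, and calls were made below a Benjamini-Hochberg adjusted p of 0.05 across all 18172 genes. Scores below 0 were less precise: the median residual SD of a gene rose from 0.0333 among the highest-scoring genes to 0.416 among the lowest, when genes were split into 4 equal bins by mean score.

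Replicate arrays correlated at 0.928 to 0.955 within the 8 groups, and the first principal component (30.3% of variance) placed the siACL arrays at -3.2 to -0.251 at 2 mM and at 26.2 to 27.2 at 5 mM. The siMock arrays moved from 15.9 to 16.4 at 2 mM to 37.1 to 38.2 at 5 mM, so the siACL arrays at 5 mM lay between the siMock arrays of those doses. Colorectal epithelial markers were high in the siACL arrays: the epithelial adhesion molecule EPCAM had a mean of 1.75 at 2 mM, KRT8 2.18 and KRT19 2.31, while the intestinal cadherin CDH17 was low (-1.91). Of 7 measured markers of blood, stromal and endothelial cells, 6 were not called and 1 rose, and the median score of the 7 lay between -1.15 and -1.03 at 2 mM and between -0.86 and -0.58 at 5 mM.

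The depletion was checked in the targeted gene first. ACLY scored 0.94, 0.96 and 0.96 in the siACL arrays at 2 mM and 1.35, 1.42 and 1.34 in the siMock arrays, a difference between the arms of -0.42 ± 0.022 (adjusted p = 1.7e-09). At 5 mM it scored 0.68, 0.70 and 0.67 in siACL and 1.34, 1.30 and 1.28 in siMock cells, and the arms differed by -0.63 ± 0.022 (adjusted p = 1.4e-11). All siACL arrays were below all siMock arrays at each of these doses. ACLY itself fell further over the step in siACL cells (-0.27 ± 0.022, adjusted p = 8.8e-08), against -0.06 ± 0.022 (adjusted p = 0.048) in siMock cells. The siACL means were 1.18 without butyrate, 1.11 at 0.5 mM, 0.95 at 2 mM and 0.68 at 5 mM.

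ACSS2, which makes cytosolic acetyl-CoA from acetate and so is the alternative to ACLY, also fell. It scored 1.06, 1.07 and 1.09 at 2 mM and 0.71, 0.74 and 0.75 at 5 mM in siACL cells, a difference of -0.34 ± 0.021 (adjusted p = 3.1e-09). In siMock cells it scored 0.74, 0.73 and 0.75 and 0.69, 0.71 and 0.70, and the step was not called (-0.045 ± 0.021, adjusted p = 0.12). The siACL arrays started above the siMock arrays at 2 mM and ended close to them at 5 mM, and the steps differed by -0.29 ± 0.029 (adjusted p = 1.2e-05). ACAT2, the cytosolic thiolase, fell in siACL cells (-0.28 ± 0.033, adjusted p = 4.8e-06), and SLC25A1, the mitochondrial citrate exporter (-0.23 ± 0.028, adjusted p = 7.3e-06). Of the 24 measured genes of acetyl-CoA and citrate supply, 3 rose and 9 fell in siACL cells, and 3 rose and 7 fell in siMock cells. Over all genes, 14.2% rose and 14.3% fell in siACL cells, and 14.1% and 15.1% in siMock cells. Without replicate 1 of siACL at 5 mM the siACL rises numbered 1, and a fit of the 6 arrays gave 0 rises and 5 falls.

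Over all genes, 5183 of 18172 (28.5%) were called in the siACL step, 2584 higher (14.2%) and 2599 lower (14.3%) at 5 mM. A near balance of rises and falls follows in part from the rank scale. The called differences were mostly small, with a median size of 0.177, and 224 genes moved by 1 or more, 146 of them upward. The arrays of the 2 doses did not overlap for 41.9% of all genes and for 5034 of the called ones. In siMock cells the arrays did not overlap for 40.1% of genes, and the step called 5315 genes (29.2%), 2569 higher (14.1%) and 2746 lower (15.1%). Of the genes called in both arms, 1602 fell in each and 1458 rose in each, while 46 rose in siACL and fell in siMock and 39 did the reverse. Another 2038 genes were called in siACL alone and 2170 in siMock alone, which by itself does not show that the arms differ. Across all genes the siACL and siMock steps correlated at r = 0.444, and at 0.729 over the 9763 genes with a mean score above 0. The siACL step correlated about as closely with the siMock step from 0.5 to 2 mM, at 0.373 and 0.733. These correlations are descriptions across genes, which are not independent, and no array is shared between the arms.

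The difference of the steps, siACL minus siMock, was called for 1182 genes (6.5%), 683 higher (3.76%) and 499 lower (2.75%) in siACL. For 705 of them the gap between the arms was smaller at 5 mM than at 2 mM, and for 477 it was larger. Among those with the lower step in siACL cells, the gap narrowed for 386 and widened for 113. Among those with the higher step, it narrowed for 319 and widened for 364.

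**Figure D1:**
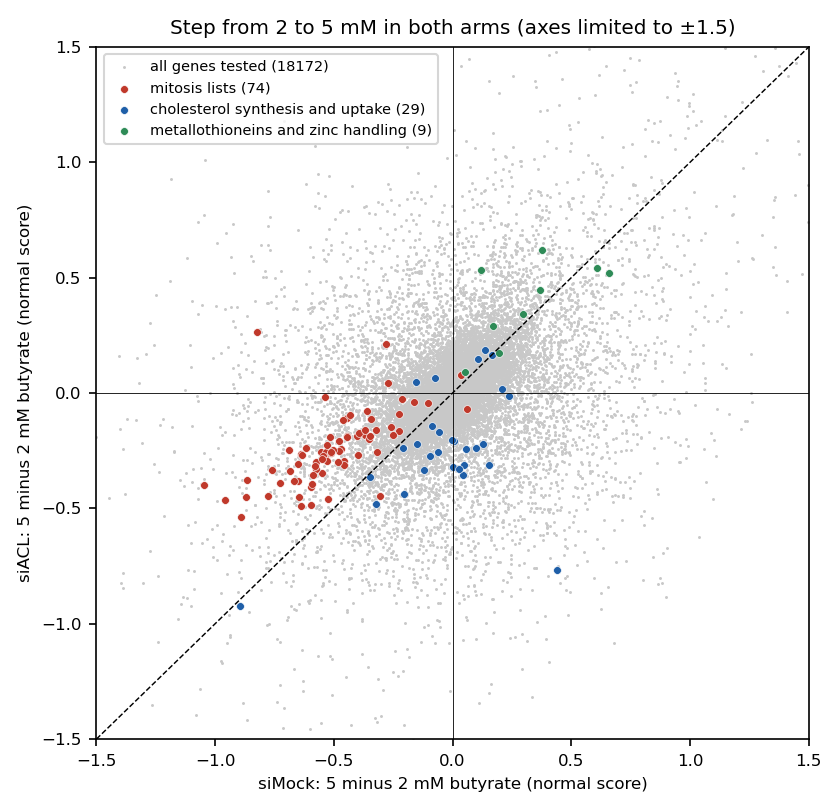
Difference between 5 and 2 mM butyrate in siMock cells (horizontal axis) and siACL cells (vertical axis), both in normal scores, with 1 point per gene; the dashed line marks equal steps and 104 of 18172 genes lie outside the drawn limits. Most genes of the 4 mitosis lists (red) lie below 0 on both axes and above the dashed line, most cholesterol genes (blue) lie below 0 in siACL cells and near 0 in siMock cells, and the metallothionein list (green) lies above 0 on both axes.

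The largest rises in siACL cells were of genes near the bottom of the array at 2 mM. The interferon-induced GTPase GBP5 scored -3.15, -2.00 and -3.23 at 2 mM and 0.099, 0.19 and 0.13 at 5 mM, a rise of 2.93 ± 0.29 (adjusted p = 7.9e-07), and the siMock step was 2.91. COX7B2, a germline paralogue of a cytochrome c oxidase subunit, scored -3.09, -3.13 and -3.62 and then -0.19, -0.75 and -0.74, a rise of 2.72 ± 0.26 (adjusted p = 6.7e-07). In both genes every 5 mM array lay above every 2 mM array. The kinase gene STK32B rose by 2.71 ± 0.24 (adjusted p = 2.7e-07), from -3.30 to -0.59. RYR3, a calcium release channel of the endoplasmic reticulum, rose by 2.54 ± 0.25 (adjusted p = 7.7e-07) and ended at -0.074, -0.19 and -0.096. The replication-dependent histone gene HIST1H4H (now H4C8) rose by 2.46 ± 0.27 (adjusted p = 2.6e-06). Genes for secreted or surface proteins were among the rises as well. CEACAM6, a cell adhesion molecule of the carcinoembryonic antigen family, scored -3.23, -2.07 and -2.18 at 2 mM and -0.0074, -0.24 and -0.39 at 5 mM, a rise of 2.28 ± 0.32 (adjusted p = 3.7e-05). DKK4, a secreted Wnt antagonist, rose by 2.18 ± 0.27 (adjusted p = 8.5e-06).

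Further rises among the 15 largest were those of PCP4, a calmodulin-binding peptide of neurons (2.28), FAM50B (2.15), the transposase-derived PGBD5 (2.13), the cancer-testis gene SPANXA1 (2.12), the actin-like ACTBL2 (2.04), FAM174B (2.00) and RUNDC3A (1.96). SPANXA1 belongs to a family of near-identical copies, and a second entry of the same gene, listed as SPANXA2, rose by less (1.09 ± 0.25, adjusted p = 0.0033). The 15 genes had means of -3.75 to -2.00 at 2 mM and of -1.75 to 0.15 at 5 mM. In siMock cells, 14 of the 15 also rose over the step, DKK4 being the exception (0.25 ± 0.27, adjusted p = 0.56). All 15 stood higher in siMock than in siACL cells at 2 mM, although the siACL arrays of that dose also served to choose them.

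The largest falls started near the middle of the array. S100A2, a calcium-binding protein of the S100 family found in epithelia, scored -0.34, -0.19 and -0.21 at 2 mM and -3.03, -1.83 and -3.90 at 5 mM, a difference of -2.67 ± 0.40 (adjusted p = 6.5e-05). It was low in siMock cells at either dose (-2.32, -2.23 and -1.57 at 2 mM, -2.24, -2.75 and -2.23 at 5 mM). ZBED2, a zinc finger gene, scored 0.57, 0.46 and 0.51 and then -1.37, -2.20 and -2.01, a difference of -2.37 ± 0.28 (adjusted p = 4.7e-06), and in siMock cells its highest array of the 2 groups read -1.95. For S100A2 and ZBED2 the siACL arrays at 2 mM stood apart from every other group shown here. The inositol phosphatase INPP5D (SHIP1) fell (-2.25 ± 0.37, adjusted p = 0.00014), reading -0.46, -0.17 and -0.16 in the 2 mM arrays against -2.42, -2.60 and -2.53 in the 5 mM arrays. The cytidine deaminase APOBEC3H fell (-2.15 ± 0.27, adjusted p = 1.2e-05) and the collagen chaperone FKBP10 (-1.87 ± 0.35, adjusted p = 0.00059).

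Keratins were among the falls. The simple-epithelium keratin KRT7 scored 0.057, -0.007 and 0.098 and then -1.80, -1.28 and -2.24, a difference of -1.82 ± 0.24 (adjusted p = 2e-05), and KRT13, a keratin of stratified epithelia, fell (-1.67 ± 0.21, adjusted p = 1e-05). CEACAM1, another adhesion molecule of the carcinoembryonic antigen family, fell (-1.78 ± 0.21, adjusted p = 4.2e-06) while its relative CEACAM6 rose. The secreted protease inhibitor SLPI fell (-1.69 ± 0.21, adjusted p = 1e-05), the dystrophin-associated SNTB1 (-1.73 ± 0.11, adjusted p = 7.6e-09), the cytokine subunit EBI3 (-1.72 ± 0.36, adjusted p = 0.0013) and SRPX2 (-1.74 ± 0.32, adjusted p = 0.00041). The other 3 genes to fall were SERPINF2 (-2.00), HSH2D (-1.69) and ALDH3B1 (-1.62), whose calls were lost in a fit of the 6 arrays alone. The 15 genes had means of -0.86 to 0.51 at 2 mM and of -2.92 to -1.18 at 5 mM. Of these genes, 6 also fell in siMock cells, and the difference between the steps was called for 5. All 15 stood lower in siMock than in siACL cells at 2 mM, with the same siACL arrays having served to choose them.

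**Figure D2:**
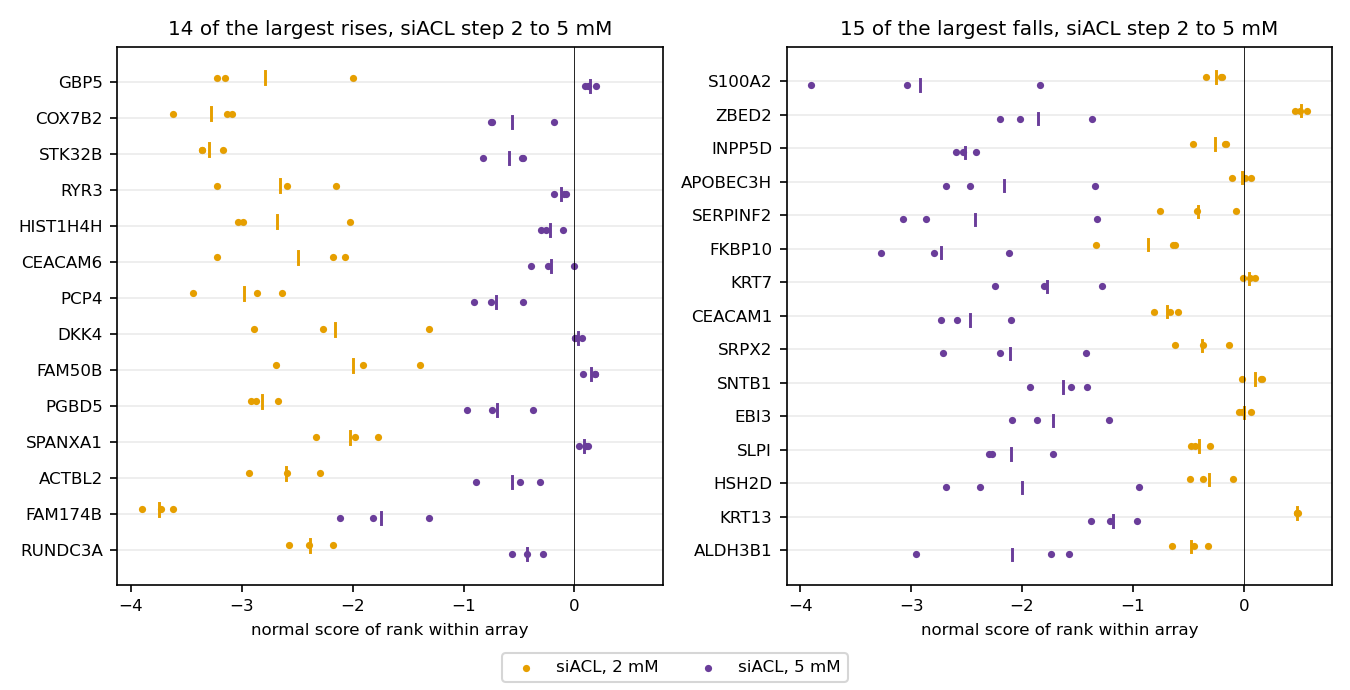
Normal scores of 14 of the 15 largest rises (left) and the 15 largest falls (right) of the siACL step, with 1 point per array, orange for 2 mM and purple for 5 mM, and a short line at each mean of 3 arrays. The arrays of the 2 doses do not overlap for any of the 29 genes, which the choice of genes required; the rises end near or below 0 and the falls start near 0.

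Cholesterol genes fell together in siACL cells. Cells make cholesterol from cytosolic acetyl-CoA through mevalonate and squalene, and the transcription factor SREBP2 switches its genes on when membrane sterol is low. Of 29 measured genes of synthesis and uptake, 20 fell and 2 rose in siACL cells, with a median difference of -0.239 against 0.005 over all genes. In siMock cells 8 fell and 7 rose, with a median of 0.003, and a fit of only those arrays called 5 and 3. The step was lower in siACL than in siMock cells for 16 of the 29 and higher for none, beside 2.75% and 3.76% of all genes. The median score of the list was 1.16, 1.17 and 1.19 in the siACL arrays at 2 mM and 0.93, 0.95 and 0.87 at 5 mM. In siMock arrays it was 0.97, 0.96 and 1.00 and 0.91, 0.94 and 0.95. The siACL arrays were thus above all siMock arrays at 2 mM. At 5 mM replicates 1 and 2 of siACL lay within the siMock range and replicate 3 (0.87) lay below it.

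At the head of the pathway, HMGCS1, the cytosolic HMG-CoA synthase, fell in siACL cells (-0.31 ± 0.029, adjusted p = 5.3e-07) and rose by 0.15 ± 0.029 (adjusted p = 0.00072) in siMock cells. Between the arms the steps of HMGCS1 differed by -0.46 ± 0.042 (adjusted p = 5.2e-06). The HMGCS1 means of siACL cells were 1.51, 1.55 and 1.60 at 0, 0.5 and 2 mM and 1.29 at 5 mM, so the drop came at the last dose. Further along, IDI1 fell (-0.31 ± 0.038, adjusted p = 7.9e-06), the squalene synthase FDFT1 (-0.33 ± 0.02, adjusted p = 2.7e-09) and the squalene epoxidase SQLE (-0.27 ± 0.025, adjusted p = 2.8e-07). The lanosterol synthase LSS fell (-0.32 ± 0.034, adjusted p = 1.8e-06), CYP51A1, which removes a methyl group of lanosterol (-0.36 ± 0.044, adjusted p = 8.7e-06), and the last-step reductase DHCR7 (-0.20 ± 0.023, adjusted p = 2.8e-06). These enzymes were named after their values were seen, because they carry the pathway.

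Genes of the sterol-sensing machinery moved both ways. INSIG1, which holds the SREBP escort protein in the endoplasmic reticulum, fell in siACL (-0.44 ± 0.041, adjusted p = 5.2e-07) and in siMock cells (-0.21 ± 0.041, adjusted p = 0.001). SREBF1, which encodes SREBP1, scored 0.99, 1.00 and 0.97 and then 0.47, 0.51 and 0.54, a difference of -0.48 ± 0.022 (adjusted p = 1.6e-10) against -0.32 ± 0.022 (adjusted p = 7.4e-09) in siMock cells. The 2 rises of the list were INSIG2 (0.18 ± 0.031, adjusted p = 0.00018) and the escort protein gene SCAP (0.15 ± 0.025, adjusted p = 0.00019). SREBF2 was imprecise and was not called (-0.22 ± 0.19, adjusted p = 0.44).

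Fatty acid synthesis moved less as a list: 7 of 25 measured genes fell and 3 rose in siACL cells, with a median of -0.034, and in siMock cells 7 fell and 5 rose, or 4 and 2 in a fit of only those arrays. Over all genes, 14.3% fell and 14.2% rose in siACL cells, so the siACL rises were near that share. Its main enzymes were among the falls. FASN, the fatty acid synthase, fell in siACL (-0.44 ± 0.04, adjusted p = 2.9e-07) and in siMock cells (-0.22 ± 0.04, adjusted p = 0.00039), the stearoyl-CoA desaturase SCD in siACL (-0.42 ± 0.03, adjusted p = 2.4e-08) and in siMock cells (-0.30 ± 0.03, adjusted p = 8.7e-07), and the elongase ELOVL6 in siACL (-0.42 ± 0.024, adjusted p = 2.1e-09) and in siMock cells (-0.13 ± 0.024, adjusted p = 0.00043). ELOVL6 scored 1.06, 1.06 and 1.07 at 2 mM and 0.66, 0.60 and 0.68 at 5 mM in siACL cells. PLIN2, a lipid droplet coat protein, fell (-0.24 ± 0.032, adjusted p = 2.6e-05). The steps of ELOVL6, FASN and INSIG1 differed between the arms by -0.28 ± 0.035 (adjusted p = 7.6e-05), -0.22 ± 0.057 (adjusted p = 0.025) and -0.23 ± 0.059 (adjusted p = 0.024). Leaving out 1 array of the 12 ended the call of FASN for 6 of them and that of INSIG1 for 4, with adjusted p up to 0.0654 and 0.0594.

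**Figure D3:**
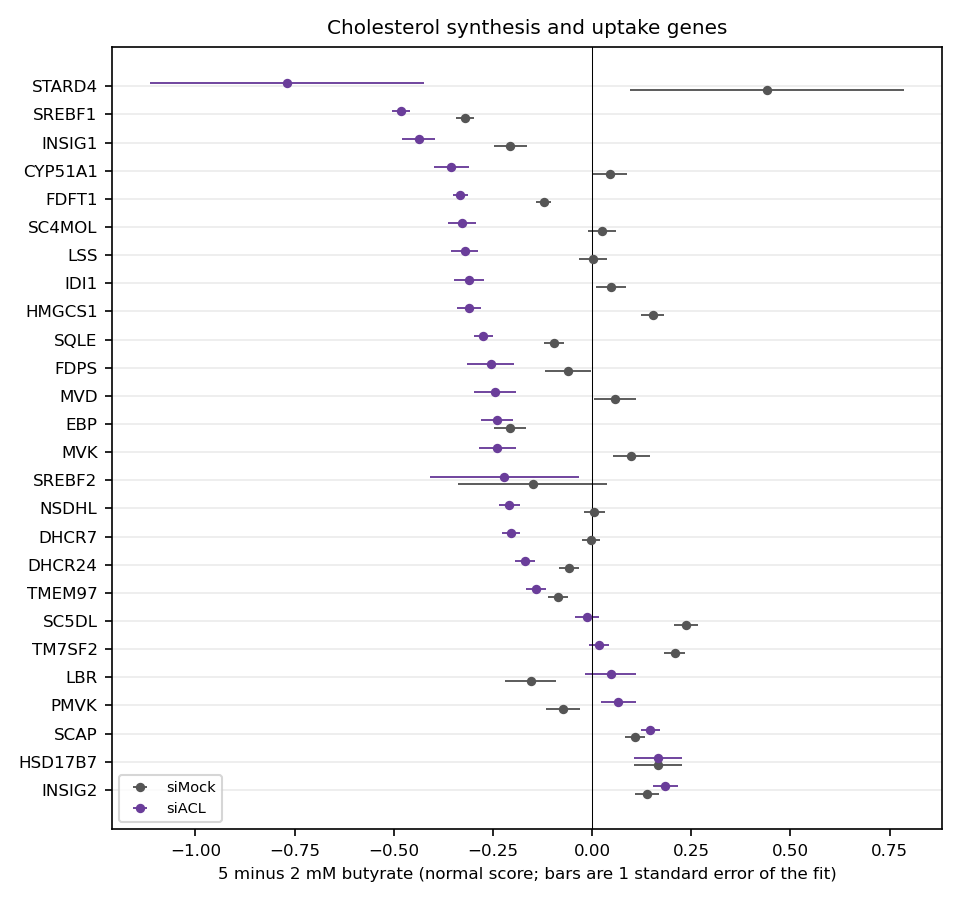
Difference between 5 and 2 mM butyrate, in normal scores, for 26 of the 29 measured cholesterol genes, in siACL cells (purple) and siMock cells (grey); bars are 1 standard error of the fit. Most enzymes of synthesis lie below 0 in siACL cells and near 0 in siMock cells.

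Genes of mitosis fell in both arms, and fell less in siACL cells. Their products build the spindle, attach chromosomes to it and split the cell, and they are transcribed as cells approach division. Of the 20 measured spindle and mitotic kinase genes, 18 fell and none rose in siACL cells (median -0.287), against 20 falls in siMock cells (median -0.585). All 11 mitotic kinesins fell in each arm, with medians of -0.295 and -0.527. Of 22 kinetochore and centromere genes 16 fell in siACL and 20 in siMock cells, and of 21 anaphase and cytokinesis genes 17 fell and 1 rose in siACL while 18 fell in siMock cells. Over the 74 genes of these 4 lists, 62 (83.8%) fell in siACL cells, beside 14.3% of all genes. The step was higher, that is, less negative, in siACL than in siMock cells for 51 of the 74 and lower for none, beside 3.76% and 2.75% of all genes. In the fit of only the 12 arrays compared, that difference was called for 8 spindle, 9 kinetochore, 4 kinesin and 12 anaphase genes, in place of 13, 14, 11 and 13. Without single arrays, the number of kinesins with a called difference between the steps was 7 to 10 in place of 11, lowest without replicate 2 of siACL at 5 mM. In whole-culture RNA, fewer dividing cells and less RNA per dividing cell cannot be told apart.

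The kinesins serve as an example of the size of this difference. Their median score was 0.85, 0.85 and 0.81 in siACL arrays at 2 mM and 0.84, 0.83 and 0.82 in siMock arrays, so on this median the arms stood together before the step. The spindle and kinase median was already higher in siACL arrays at 2 mM (1.16, 1.20 and 1.16 against 1.08, 1.10 and 1.12). The anaphase median was barely so, and the kinetochore medians overlapped. At 5 mM the kinesin median was 0.61, 0.60 and 0.59 in siACL and 0.32, 0.31 and 0.28 in siMock arrays, and the arms no longer overlapped. KIF20A, a kinesin of the cleavage furrow, scored 1.34, 1.33 and 1.32 and then 0.72, 0.84 and 0.81 in siACL cells, a difference of -0.54 ± 0.033 (adjusted p = 3e-09). In siMock cells it scored 1.22, 1.22 and 1.18 and 0.32, 0.36 and 0.26, a difference of -0.89 ± 0.033 (adjusted p = 5.1e-12). The steps of KIF20A differed by 0.35 ± 0.046 (adjusted p = 0.00015).

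CCNB2, the mitotic cyclin B2, scored 1.41, 1.46 and 1.49 and then 0.98, 1.03 and 1.00 in siACL cells, and fell (-0.45 ± 0.029, adjusted p = 4.8e-09). In siMock cells it fell (-0.87 ± 0.029, adjusted p = 1.5e-12), to 0.49, 0.45 and 0.57. The steps differed by 0.42 ± 0.041 (adjusted p = 1e-05). Cyclin B1 (CCNB1) fell (-0.49 ± 0.044, adjusted p = 2.8e-07) and the transcription factor FOXM1, which activates many of these genes (-0.45 ± 0.042, adjusted p = 3.9e-07), and for these the difference between the arms was not called. The centromeric histone CENPA fell (-0.38 ± 0.032, adjusted p = 1.2e-07), the kinetochore protein CENPF (-0.35 ± 0.031, adjusted p = 2.6e-07) and CDCA8, of the chromosomal passenger complex (-0.39 ± 0.045, adjusted p = 4.4e-06). KIF2C fell (-0.33 ± 0.031, adjusted p = 4.1e-07), KIF4A (-0.38 ± 0.062, adjusted p = 0.00016) and KIF22 (-0.31 ± 0.027, adjusted p = 1.8e-07). HMMR, a spindle-associated hyaluronan receptor, fell (-0.45 ± 0.024, adjusted p = 8e-10), the separase ESPL1 (-0.48 ± 0.046, adjusted p = 5.7e-07), the ubiquitin-conjugating enzyme UBE2C (-0.34 ± 0.023, adjusted p = 9.3e-09) and the cleavage-furrow protein ANLN (-0.36 ± 0.032, adjusted p = 2.5e-07). The steps of HMMR, UBE2C and CENPA differed between the arms by 0.33 ± 0.034 (adjusted p = 1.5e-05), 0.35 ± 0.032 (adjusted p = 6.1e-06) and 0.29 ± 0.045 (adjusted p = 0.00072).

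Promoters of mitotic genes share a cell cycle homology region (CHR), read by the DREAM and MuvB complexes, and CCAAT boxes bound by NF-Y. The windows searched run from 250 bases before to 50 after each RefSeq gene start on GRCh38.p14, on either strand. TTTGAA or TTCGAA was found in 8 of the 14 spindle and kinase promoters at hand (57.1%), 11 of 16 kinetochore (68.8%), 9 of 11 kinesin (81.8%) and 13 of 18 anaphase promoters (72.2%), against 16.6% of all 27305 promoters. CCAAT was found in 71.4%, 68.8%, 81.8% and 72.2% of the same promoters, against 35.7% of all. It was also found in 16 of 23 promoters of the cholesterol list (69.6%), so this excess is not particular to mitosis genes. A match is a run of letters, not a shown binding site. The 120 bases before the start of 5 of the genes above are printed 5′ to 3′ to show the arrangement, with CHR letters and CCAAT boxes (ATTGG on the other strand) in capitals. They lie on the plus strand at chr15:59105026-59105145 (CCNB2), chr2:26785936-26786055 (CENPA), chrX:70289984-70290103 (KIF4A), chr5:163460512-163460631 (HMMR) and chr12:53268179-53268298 (ESPL1).
CCNB2: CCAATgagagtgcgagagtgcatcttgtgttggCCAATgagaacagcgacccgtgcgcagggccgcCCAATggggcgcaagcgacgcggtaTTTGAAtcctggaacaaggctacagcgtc
CENPA: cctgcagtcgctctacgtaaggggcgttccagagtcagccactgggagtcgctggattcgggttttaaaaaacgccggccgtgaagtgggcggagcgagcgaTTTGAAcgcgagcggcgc
KIF4A: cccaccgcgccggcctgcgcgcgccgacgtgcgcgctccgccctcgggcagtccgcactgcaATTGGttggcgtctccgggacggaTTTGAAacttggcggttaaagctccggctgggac
HMMR: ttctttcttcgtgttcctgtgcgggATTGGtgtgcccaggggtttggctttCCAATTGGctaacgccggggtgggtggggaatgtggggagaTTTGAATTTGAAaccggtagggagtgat
ESPL1: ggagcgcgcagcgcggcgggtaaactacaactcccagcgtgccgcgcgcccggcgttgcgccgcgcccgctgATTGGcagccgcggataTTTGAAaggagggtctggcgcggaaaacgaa
In HMMR the CHR letters occur in tandem and 2 CCAAT boxes of opposite strand overlap. In CCNB2, with 3 CCAAT boxes, KIF4A and ESPL1 the CHR letters lie downstream of the box, and no CCAAT lies in the stretch shown for CENPA.

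Genes of DNA replication separated the arms in another way. They are induced by E2F factors as cells enter S phase. Of 39 measured genes of origin licensing and the replisome, 7 rose and 7 fell in siACL cells (median 0.035), against 1 rise and 22 falls in siMock cells (median -0.132). Over all genes, 14.2% rose and 14.3% fell in siACL cells, and 14.1% and 15.1% in siMock cells. The siACL counts were thus near the shares of all genes. The step was higher in siACL cells for 17 and lower for none, beside 3.76% and 2.75% of all genes. It was higher for 11 in the fit of only the arrays compared. The 7 falls in siACL cells were not firm: 3 to 5 were past the threshold when single arrays were left out, the fewest without replicate 3 of siACL at 5 mM, and 1 in a fit of the 6 arrays. MCM7, a subunit of the replicative helicase, scored 1.45, 1.5 and 1.47 and then 1.29, 1.34 and 1.32 in siACL cells, a difference of -0.15 ± 0.023 (adjusted p = 7.3e-05), against -0.30 ± 0.023 (adjusted p = 2.9e-08) in siMock cells. RFC1, the large subunit of the clamp loader, rose by 0.14 ± 0.031 (adjusted p = 0.0019), and MCM10, a loading factor, rose by 0.13 ± 0.02 (adjusted p = 9.7e-05) in siACL and fell in siMock cells (-0.14 ± 0.02, adjusted p = 4.8e-05). The sliding clamp PCNA was not called in siACL cells (-0.043 ± 0.027, adjusted p = 0.27) and fell in siMock cells (-0.24 ± 0.027, adjusted p = 3.1e-06). MCM10 and PCNA were named after their values were seen.

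Nucleotide supply and chromatin assembly genes fell in both arms, 12 of 23 in siACL and 15 in siMock cells, with medians of -0.077 and -0.262. Over all genes, 14.3% fell in siACL and 15.1% in siMock cells. The thymidylate synthase TYMS fell (-0.25 ± 0.026, adjusted p = 1.5e-06), the dUTPase DUT (-0.27 ± 0.038, adjusted p = 3e-05), the CTP synthase CTPS (now CTPS1) (-0.23 ± 0.024, adjusted p = 9.5e-07) and PAICS, of purine synthesis (-0.18 ± 0.022, adjusted p = 6.7e-06) in siACL cells. Leaving out replicate 1 of siACL at 2 mM gave 8 falls in place of 12, as did percentile ranks, and a fit of the 6 arrays gave 6. Of 21 genes of homologous recombination and the Fanconi pathway, 7 fell and 1 rose in siACL cells, and 13 fell in siMock cells. FANCD2 fell (-0.28 ± 0.033, adjusted p = 4.4e-06) and FANCI (-0.24 ± 0.027, adjusted p = 4.4e-06), while the exonuclease EXO1 rose by 0.18 ± 0.03 (adjusted p = 0.00025) in siACL and fell in siMock cells (-0.095 ± 0.03, adjusted p = 0.024). With replicate 1 of siACL at 2 mM left out, 4 falls were called in place of 7, and 3 in a fit of the 6 arrays.

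E2F letters (TTTCGCG or TTTGGCG, either strand) were found in 14 of the 34 replication promoters at hand (41.2%) and 4 of 21 nucleotide and assembly promoters (19%), against 3.22% of all promoters. The 120 bases before the start of MCM7 show such a match close to the start, in capitals. They lie on the minus strand at chr7:100101398-100101517 and are printed in the direction of transcription.
MCM7: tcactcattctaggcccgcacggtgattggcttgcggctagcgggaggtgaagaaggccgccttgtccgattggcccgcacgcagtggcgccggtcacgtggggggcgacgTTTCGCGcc

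Metallothioneins rose in both arms. These small proteins bind zinc and copper through cysteines, and metal sensing by MTF1 switches their genes on. Of 9 measured genes of metallothioneins and zinc handling, 8 rose and none fell in siACL cells (median 0.445), and 6 rose in siMock cells (median 0.297). MT2A scored 2.69, 2.63 and 2.67 and then 3.12, 3.33 and 3.40 in siACL cells, a rise of 0.62 ± 0.089 (adjusted p = 4.1e-05). MT1X scored 2.02, 2.05 and 2.03 and then 2.51, 2.60 and 2.55, a rise of 0.52 ± 0.028 (adjusted p = 8.7e-10), against 0.66 ± 0.028 (adjusted p = 2.6e-11) in siMock cells. MT1F rose by 0.45 ± 0.023 (adjusted p = 5.1e-10), MT1G by 0.34 ± 0.028 (adjusted p = 9.4e-08) and MT1A by 0.53 ± 0.092 (adjusted p = 0.00025). MT2A and MT1A sit at the top of the array, where ranks have little room, and on percentile ranks their rises were no longer past the threshold. The factor MTF1 rose by 0.18 ± 0.035 (adjusted p = 0.001) and the zinc exporter SLC30A1 by 0.092 ± 0.024 (adjusted p = 0.0081). Metallothionein copies are nearly identical, so signal may be shared between them. The median of the list was 1.25, 1.26 and 1.24 at 2 mM and 1.67, 1.72 and 1.71 at 5 mM in siACL arrays, below the siMock arrays of the same dose (1.55, 1.51 and 1.58, then 1.92, 1.91 and 1.92).

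TGCGCNC, the only spelling of the metal response element searched for, was found on either strand in 3 of the 5 promoters at hand (60%), against 20% of all promoters. The 160 bases before the start of MT1X (chr16:56682310-56682469) and MT2A (chr16:56608424-56608583), plus strand, are printed with these letters in capitals.
MT1X: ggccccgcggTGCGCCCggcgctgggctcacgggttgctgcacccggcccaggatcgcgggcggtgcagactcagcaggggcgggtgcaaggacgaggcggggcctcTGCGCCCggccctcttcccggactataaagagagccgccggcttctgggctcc
MT2A: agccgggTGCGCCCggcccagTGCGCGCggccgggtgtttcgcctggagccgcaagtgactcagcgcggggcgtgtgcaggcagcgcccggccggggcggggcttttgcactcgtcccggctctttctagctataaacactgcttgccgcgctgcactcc
Each stretch holds 2 matches to these letters, side by side in MT2A and apart in MT1X. Other spellings of the element were not searched for and are unmarked.

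Ribosome biogenesis genes fell in siACL cells. They make and assemble ribosomal RNA in the nucleolus, and many are MYC targets. Of 36 measured, 19 fell and 1 rose in siACL cells (median -0.093), while 3 fell and 7 rose in siMock cells (median 0.021). The step was lower in siACL cells for 12 and higher for none. The median score of the list was 1.07, 1.11 and 1.07 at 2 mM and 0.94, 0.95 and 0.96 at 5 mM in siACL arrays, and 0.95, 0.96 and 0.90 and 0.95, 0.97 and 0.97 in siMock arrays, so the arms met at 5 mM. The coactivator PPRC1 scored 1.17, 1.19 and 1.23 and then 0.91, 0.85 and 0.86 in siACL cells, a difference of -0.32 ± 0.03 (adjusted p = 4.3e-07), against -0.092 ± 0.03 (adjusted p = 0.026) in siMock cells, and the steps differed by -0.23 ± 0.042 (adjusted p = 0.0029). RRS1 fell (-0.21 ± 0.048, adjusted p = 0.0032), NOB1, an endonuclease of small-subunit maturation (-0.27 ± 0.05, adjusted p = 0.00056), and the rRNA methyltransferase NOP2 (-0.15 ± 0.026, adjusted p = 0.00032). The rise was EBNA1BP2 (0.12 ± 0.018, adjusted p = 7.7e-05). Between 13 and 17 falls were past the threshold without single arrays, the fewest without replicate 3 of siACL at 5 mM, and 10 in a fit of the 6 arrays. Fits of only the arrays compared gave 0 rises and 0 falls in siMock cells and 4 called differences between the steps. MYC itself was at the threshold, reading 1.76, 1.80 and 1.70 before and 1.70, 1.69 and 1.67 after the step, a difference of -0.067 ± 0.025 (adjusted p = 0.0501). Without replicate 3 of siACL at 2 mM the MYC difference was -0.0952 (adjusted p = 0.00603).

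**Figure D4:**
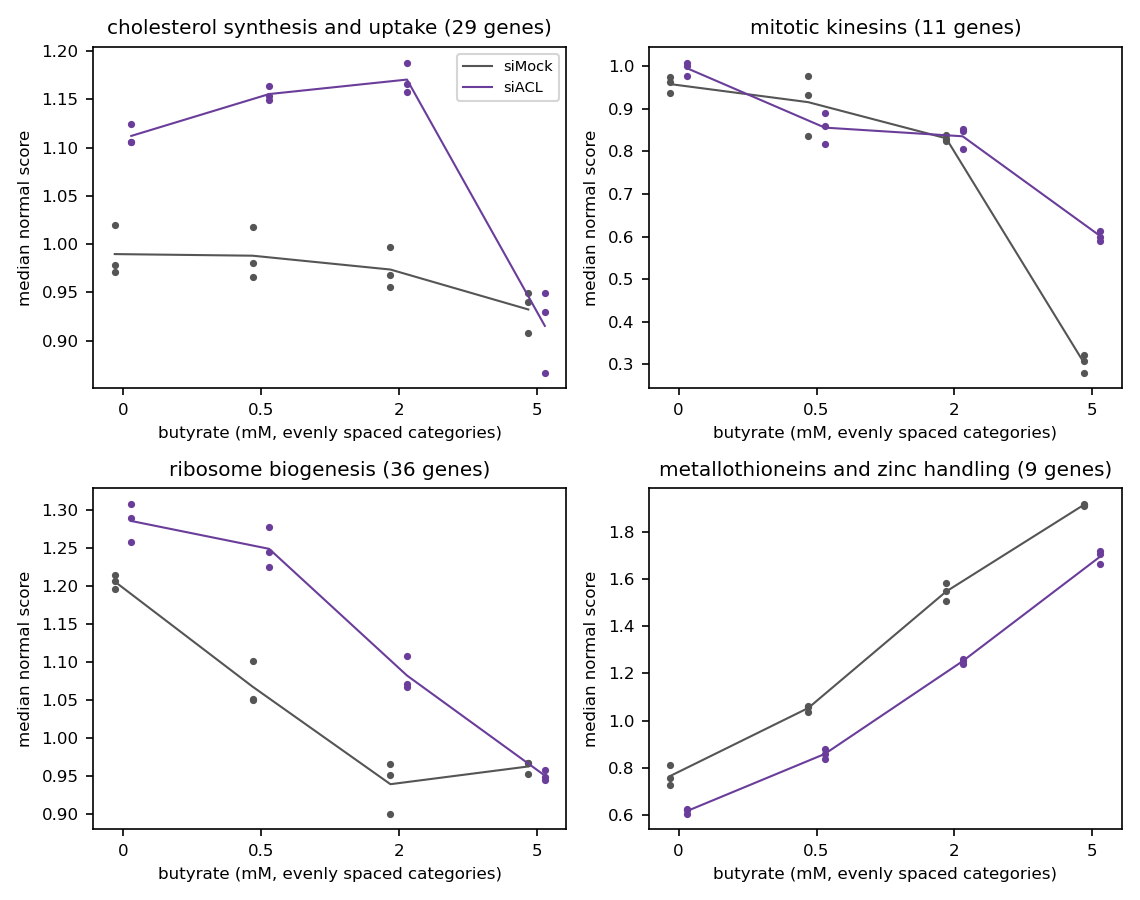
Median normal score of the genes of 4 lists by butyrate dose (0, 0.5, 2 and 5 mM as evenly spaced categories), 1 point per array, in siMock (grey) and siACL cells (purple), with lines through the means of 3 arrays; the vertical axes do not start at 0. Over the last step the cholesterol and ribosome biogenesis medians of siACL cells reach the siMock level, the kinesin median falls in both arms and further in siMock, and the metallothionein median rises in both.

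Stress and survival genes were mixed. Over all genes, 14.3% fell and 14.2% rose in siACL cells, and 15.1% and 14.1% in siMock cells. The step was lower in siACL for 2.75% of all genes and higher for 3.76%. Of 25 genes of the ATF4 and integrated stress response, 10 fell and 2 rose in siACL cells, and 5 fell and 3 rose in siMock cells, and the step was lower in siACL for 7 and higher for 2. The latter counts were 4 and 1 on percentile ranks and 2 and 0 in the fit of only the arrays compared. The transcription factor ATF5 fell in siACL (-0.59 ± 0.058, adjusted p = 7.7e-07) and in siMock cells (-0.23 ± 0.058, adjusted p = 0.0053), the mTORC1 inhibitor DDIT4 in siACL (-0.48 ± 0.031, adjusted p = 7.6e-09) and in siMock cells (-0.23 ± 0.031, adjusted p = 2.4e-05), and the pseudokinase TRIB3 (-0.21 ± 0.035, adjusted p = 0.00016) with no call in siMock (0.0007 ± 0.035, adjusted p = 0.99). GPT2, an alanine aminotransferase, rose by 0.25 ± 0.025 (adjusted p = 9.5e-07). The steps of ATF5 and DDIT4 differed by -0.35 ± 0.082 (adjusted p = 0.014) and -0.25 ± 0.044 (adjusted p = 0.0024). Of 22 p53 target genes 12 fell and 2 rose in siACL cells, close to the 11 falls and 2 rises of siMock cells. The DNA damage sensor DDB2 fell (-0.46 ± 0.029, adjusted p = 4.1e-09), PHLDA3, an inhibitor of AKT (-0.37 ± 0.067, adjusted p = 0.00037), and BAX, the pore-forming death protein (-0.38 ± 0.032, adjusted p = 1.7e-07). BAX fell in siMock cells (-0.17 ± 0.032, adjusted p = 0.00065), and its steps differed by -0.21 ± 0.046 (adjusted p = 0.01). Within the 32 genes of the BCL2 and death receptor list, 4 rose and 9 fell in siACL cells, the rises near the share of all genes. A fit of the 6 arrays gave 3 rises and 6 falls. CFLAR, an inhibitor of caspase-8, was among the falls, with -0.43 ± 0.074 (adjusted p = 0.00026).

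CDKN1A (p21), a cyclin-dependent kinase inhibitor that butyrate induces in colon cells, did not rise further. It scored 1.96, 1.98 and 1.97 at 2 mM and 1.82, 1.81 and 1.81 at 5 mM in siACL cells, a difference of -0.16 ± 0.024 (adjusted p = 7.7e-05), and fell in siMock cells (-0.18 ± 0.024, adjusted p = 2.1e-05). CDKN2A, which encodes p16 and ARF, fell in siACL (-0.53 ± 0.096, adjusted p = 0.00037) and in siMock cells (-1.22 ± 0.096, adjusted p = 4.2e-08), and the steps differed by 0.68 ± 0.14 (adjusted p = 0.0049). The antiproliferative factor BTG2 fell (-0.27 ± 0.036, adjusted p = 2e-05). Of the 17 genes of CDK inhibitors and growth arrest, 5 rose and 6 fell in siACL cells, beside 14.2% and 14.3% of all genes. Cyclin D3 (CCND3) rose by 0.19 ± 0.024 (adjusted p = 1e-05) in siACL cells and was not called in siMock (-0.053 ± 0.024, adjusted p = 0.12), a difference of 0.25 ± 0.034 (adjusted p = 0.00028), while CDK4 fell (-0.15 ± 0.022, adjusted p = 4.2e-05) and SKP2, which targets p27 for degradation (-0.12 ± 0.027, adjusted p = 0.0023).

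NF-kB genes were split, with 3 rises and 4 falls of 19 and a median of 0.01 in siACL cells, beside 28.5% of all genes called. NFKBIA, the inhibitor and feedback target of NF-kB, fell (-0.32 ± 0.028, adjusted p = 2.1e-07) with no call in siMock (-0.016 ± 0.028, adjusted p = 0.72), the lymphotoxin receptor LTBR in siACL (-0.50 ± 0.036, adjusted p = 1.7e-08) and in siMock cells (-0.17 ± 0.036, adjusted p = 0.0015), and NFKB1 (-0.28 ± 0.035, adjusted p = 9.9e-06). The steps of NFKBIA and LTBR differed by -0.30 ± 0.039 (adjusted p = 0.00015) and -0.33 ± 0.05 (adjusted p = 0.00056). The matricellular genes CTGF (now CCN2) and CYR61 (now CCN1), targets of YAP and of serum response factor, rose in both arms. CTGF scored 1.13, 1.06 and 1.13 and then 1.73, 1.71 and 1.73, a rise of 0.61 ± 0.028 (adjusted p = 1.6e-10) against 0.27 ± 0.028 (adjusted p = 1.4e-06) in siMock cells, and CYR61 rose by 0.54 ± 0.03 (adjusted p = 1.1e-09) against 0.31 ± 0.03 (adjusted p = 5.6e-07). The steps of CTGF and CYR61 differed by 0.34 ± 0.04 (adjusted p = 4.9e-05) and 0.23 ± 0.043 (adjusted p = 0.0027).

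Genes that act on histones were split. Of 16 histone deacetylases and sirtuins, 4 rose and 1 fell in siACL cells (median 0.002), and of 17 acetyltransferase genes 2 rose and 4 fell (median 0.049), beside 28.5% of all genes called. A fit of the 6 arrays gave 2 rises and 2 falls among the deacetylases and 1 rise and 2 falls among the acetyltransferases. HDAC3, the catalytic subunit of the NCoR complex, rose by 0.19 ± 0.035 (adjusted p = 0.00061) and the nucleolar sirtuin SIRT7 by 0.40 ± 0.043 (adjusted p = 2e-06). The acetyltransferase MYST1 (now KAT8) fell (-0.15 ± 0.043, adjusted p = 0.012), and BRD1, a scaffold of acetyltransferase complexes (-0.23 ± 0.039, adjusted p = 0.00022). Among 46 histone genes 10 rose and 3 fell in siACL cells, and 15 rose and 7 fell in siMock cells. Of all genes, 14.2% rose and 14.3% fell in siACL cells, and 14.1% and 15.1% in siMock cells. Besides HIST1H4H, the linker histone HIST1H1C (now H1-2) rose by 0.36 ± 0.036 (adjusted p = 1.1e-06) and HIST2H2AA3 (now H2AC18) by 0.37 ± 0.042 (adjusted p = 4e-06), while the macroH2A gene H2AFY2 (now MACROH2A2) fell (-0.43 ± 0.025, adjusted p = 2.2e-09). Histone genes have near-identical copies, and their values are uncertain to that extent.

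Lysosome and autophagy genes rose: 19 of 36 were higher and 2 lower in siACL cells (median 0.105), and 14 were higher and 3 lower in siMock cells (median 0.043), where percentile ranks gave 9 rises and a fit of only those arrays 8. The sialidase NEU1 scored 0.87, 0.86 and 0.97 and then 1.27, 1.18 and 1.28 in siACL cells and rose by 0.34 ± 0.034 (adjusted p = 8.9e-07), the calcium channel MCOLN1 by 0.31 ± 0.043 (adjusted p = 3.4e-05) and the autophagy protease ATG4A by 0.32 ± 0.03 (adjusted p = 4.7e-07). Over all genes, 14.2% rose and 14.3% fell in siACL cells, and 14.1% and 15.1% in siMock cells. Genes of mitochondrial fuel use leaned upward in siACL cells as well. Of 29 genes of butyrate uptake, fatty acid oxidation and ketogenesis, 9 rose and 2 fell in siACL cells, against 7 and 7 in siMock cells. In fits of only the arrays compared, 7 rose and 0 fell in siACL cells, and 6 rose and 2 fell in siMock cells, so the contrast between the arms depended on the fit. The electron transfer enzyme ETFDH rose by 0.29 ± 0.029 (adjusted p = 9.6e-07), CPT2, the inner-membrane carnitine transferase, by 0.22 ± 0.033 (adjusted p = 6.6e-05), ACADSB, a short branched-chain acyl-CoA dehydrogenase, by 0.66 ± 0.14 (adjusted p = 0.0017) and the lipase inhibitor ANGPTL4 by 0.33 ± 0.033 (adjusted p = 7.6e-07). SLC16A1, the monocarboxylate carrier that brings in butyrate, was low and variable on this array, from -1.40 to -0.048 at 2 mM, and was not called (-0.30 ± 0.40, adjusted p = 0.66).

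Of 76 genes of the respiratory chain and ATP synthase, 23 rose and 7 fell in siACL cells, beside 14.2% and 14.3% of all genes. In siMock cells 13 rose and 9 fell. On percentile ranks the siACL count was 11 rises and 7 falls, beside 2585 and 2530 of all 18172 genes, so the share of rises was near that of all genes. In a fit of the 6 arrays it was 10 and 2, beside 1704 and 1623. ATP5G3 (now ATP5MC3) rose by 0.20 ± 0.033 (adjusted p = 0.00016) and NDUFA6 fell (-0.18 ± 0.037, adjusted p = 0.0011). Of 24 genes of glucose uptake and glycolysis 9 fell and 3 rose, close to the 10 and 3 of siMock cells. On percentile ranks 4 fell in each arm, and in fits of only the arrays compared 3 fell in siACL and 5 in siMock cells. The neuronal-type glucose transporter SLC2A3 scored 1.20, 1.20 and 1.16 and then 1.60, 1.59 and 1.57 in siACL cells and rose by 0.40 ± 0.032 (adjusted p = 6.3e-08), against 0.11 ± 0.032 (adjusted p = 0.017) in siMock cells, a difference of 0.30 ± 0.045 (adjusted p = 0.00056). Phosphoglucose isomerase (GPI) fell (-0.25 ± 0.032, adjusted p = 1.4e-05) and the liver-type phosphofructokinase PFKL (-0.20 ± 0.028, adjusted p = 3.4e-05). Mitochondrial ribosomal protein genes fell for 18 and rose for 10 of 73, beside 14.3% and 14.2% of all genes, and for 11 and 2 in a fit of the 6 arrays, with MRPL49 at -0.37 ± 0.036 (adjusted p = 7.1e-07) and MRPL11 at -0.30 ± 0.019 (adjusted p = 3.8e-09). Of 28 NRF2 and glutathione genes 11 fell and 6 rose, and 7 fell in a fit of the 6 arrays. The quinone reductase NQO1 scored 1.58, 1.60 and 1.62 and then 1.16, 1.18 and 1.14, a difference of -0.44 ± 0.019 (adjusted p = 1e-10), and the export pumps ABCC2 and ABCC3 fell as well, with differences of -0.89 ± 0.16 (adjusted p = 0.00036) and -0.46 ± 0.041 (adjusted p = 2.5e-07).

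**Figure D5:**
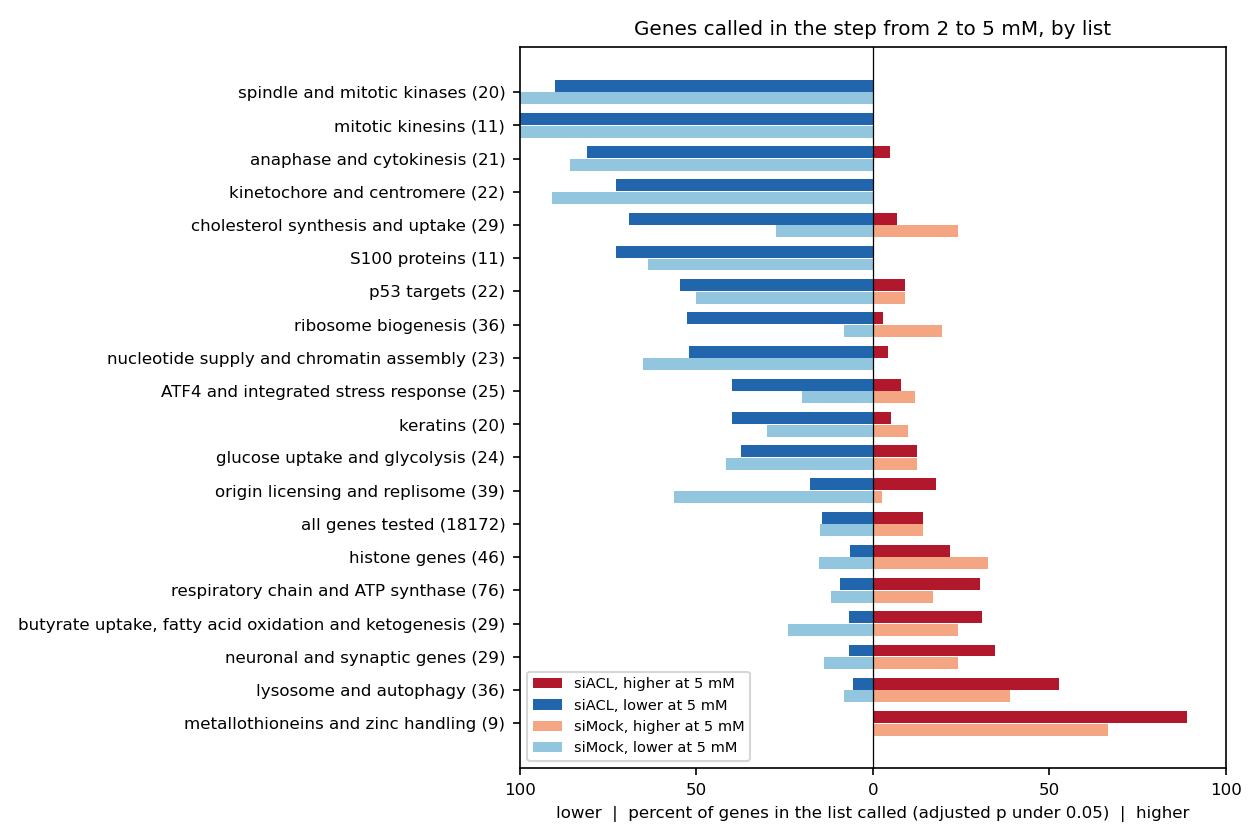
Percent of the measured genes of each list (number in brackets) that were called higher (right of 0) or lower (left of 0) at 5 than at 2 mM, dark bars for siACL and pale bars for siMock cells; the row of all genes tested is the background. Cholesterol and ribosome biogenesis genes fall in siACL cells and are split or mostly not called in siMock cells, replication genes fall mainly in siMock cells, and mitosis and metallothionein lists move one way in both.

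Lineage genes also changed. All 8 called members of the 11 measured S100 genes fell in siACL cells (median -0.395), and 7 fell in siMock cells. Besides S100A2, the metastasis-linked S100A4 fell (-0.40 ± 0.02, adjusted p = 3.8e-10), S100A14 (-0.53 ± 0.045, adjusted p = 1.6e-07) and S100A16 (-0.43 ± 0.029, adjusted p = 1e-08). Of 20 keratins 8 fell and 1 rose in siACL cells, against 6 and 2 in siMock cells. In siACL cells KRT23 fell (-0.66 ± 0.10, adjusted p = 8.6e-05) and KRT8 (-0.22 ± 0.039, adjusted p = 0.0003). A second entry for KRT18, whose own entry fell (-0.19 ± 0.049, adjusted p = 0.0064), gave -0.45 ± 0.05 (adjusted p = 2.9e-06). Markers of the colorectal epithelium fell in 5 of 7 in siACL cells, and in 2 in a fit of the 6 arrays, while 4 fell and 1 rose in siMock cells. The siACL falls included EPCAM (-0.27 ± 0.035, adjusted p = 1.7e-05) (a second entry, TACSTD1 (-0.21 ± 0.025, adjusted p = 4.5e-06)), the intestinal transcription factor CDX2 (-0.19 ± 0.04, adjusted p = 0.0013) and E-cadherin (CDH1) (-0.15 ± 0.031, adjusted p = 0.0012). Of 25 HOX genes 7 fell and 4 rose in siACL cells (7 and 0 in siMock), with HOXB5 at -0.57 ± 0.026 (adjusted p = 1.5e-10) and HOXB8 at -0.58 ± 0.042 (adjusted p = 1.8e-08) in siACL cells. No mucin, goblet or Paneth gene rose and 3 of 16 fell in siACL cells, near the 14.3% of all genes that fell. Among the falls were the membrane mucin MUC1 (-0.98 ± 0.15, adjusted p = 9.7e-05) and the kallikrein KLK6 (-0.49 ± 0.03, adjusted p = 3.4e-09).

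Genes of neurons and endocrine cells had more rises than falls. Of 29 neuronal and synaptic genes 10 rose and 2 fell in siACL cells (7 and 4 in siMock). In siACL cells SYT11, a synaptotagmin, stood at 0.77 ± 0.079 (adjusted p = 1.1e-06) and the synuclein SNCG, a fall, at -1.61 ± 0.20 (adjusted p = 7.4e-06). Of 14 enteroendocrine and peptide hormone genes 5 rose and 1 fell in siACL cells (3 and 1 in siMock). The granule peptide VGF rose in siACL cells by 0.83 ± 0.045 (adjusted p = 8e-10) and gastrin (GAST) by 1.4 ± 0.22 (adjusted p = 0.00012). Of 30 cancer-testis genes 5 rose and none fell, a share of rises near the 14.2% of all genes (8 rose on percentile ranks and in a fit of the 6 arrays), and MAGEB2 rose by 0.14 ± 0.019 (adjusted p = 3.3e-05). Wnt pathway genes were split, 3 rises and 4 falls of 21 in siACL cells, beside 14.2% and 14.3% of all genes. The rises were the secreted antagonists DKK4, NOTUM (0.52 ± 0.054, adjusted p = 1.2e-06) and DKK1 (0.46 ± 0.028, adjusted p = 3.8e-09), while CD44 fell (-0.39 ± 0.03, adjusted p = 4.7e-08). The vitamin D hydroxylase CYP24A1 scored 1.37, 1.39 and 1.36 and then 0.72, 0.66 and 0.60, a difference of -0.71 ± 0.035 (adjusted p = 3.2e-10), and fell as far in siMock cells (-0.72 ± 0.035, adjusted p = 7.9e-11). Antigen presentation genes of MHC class I fell in 5 of 15 in siACL cells, among them the peptide transporter TAP1 (-0.17 ± 0.025, adjusted p = 4.4e-05) and tapasin (TAPBP) (-0.61 ± 0.11, adjusted p = 0.00024). More of them fell in siMock cells, 11 of 15. In fits of only the arrays compared, 5 fell in each arm.

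Counts of zinc finger factors differed between the arms in the fit of all 24 arrays. Of 11 Krueppel-like factors 2 rose and 3 fell in siACL cells, while 6 rose and none fell in siMock cells, and the step was lower in siACL for 5. The siMock rises numbered 3 in a fit of only its arrays. KLF13 scored 1.06, 1.04 and 1.09 and then 0.97, 0.92 and 0.99 in siACL cells, a difference of -0.10 ± 0.022 (adjusted p = 0.0017), but 0.86, 0.92 and 0.90 and then 1.02, 1.05 and 1.00 in siMock cells, a rise of 0.13 ± 0.022 (adjusted p = 0.0002). KLF6 fell in siACL cells (-0.25 ± 0.024, adjusted p = 5.9e-07) and was not called in siMock (-0.0083 ± 0.024, adjusted p = 0.84). KLF11 rose by 0.33 ± 0.092 (adjusted p = 0.012) in siACL and 1.06 ± 0.092 (adjusted p = 1.2e-07) in siMock cells, and the siACL call was lost without replicate 1 at 2 mM (adjusted p = 0.0704). The steps of KLF13, KLF6 and KLF11 differed by -0.24 ± 0.031 (adjusted p = 0.00017), -0.24 ± 0.034 (adjusted p = 0.00028) and -0.73 ± 0.13 (adjusted p = 0.002). Of 337 numbered ZNF genes 28 rose and 36 fell in siACL cells, beside 14.2% and 14.3% of all genes, while 68 rose and 14 fell in siMock cells. The step was lower in siACL for 19 of them, beside 2.75% of all genes, and for 5 to 16 without single arrays, the fewest without replicate 3 of siACL at 5 mM. In fits of only the arrays compared, 24 ZNF genes rose in siMock cells and 3 had a lower step in siACL. All genes so called numbered 1337 and 190 of 18172, so the ZNF shares were near those of all genes.

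The genes with the largest differences between the steps fell into several patterns. Some rose more in siACL than in siMock cells. DKK4 scored -0.053, 0.058 and 0.089 in siMock arrays at 2 mM, where the siACL arrays read -1.31, -2.89 and -2.27, and 0.01, 0.072 and 0.0046 in siACL arrays at 5 mM. The difference of its steps was 1.94 ± 0.38 (adjusted p = 0.0045). The synaptic vesicle protein SYP rose by 1.91 ± 0.22 (adjusted p = 4.4e-06) in siACL cells to 0.062, 0.13 and 0.088, beside 0.11, 0.051 and 0.12 in siMock cells at 5 mM, and its steps differed by 1.57 ± 0.31 (adjusted p = 0.005). The tight junction gene CLDN1 and the G protein regulator RGS9 rose by 1.92 ± 0.27 (adjusted p = 3.2e-05) and 1.63 ± 0.23 (adjusted p = 3.9e-05), and their steps differed by 1.67 ± 0.38 (adjusted p = 0.013) and 1.42 ± 0.33 (adjusted p = 0.015). The parathyroid hormone receptor PTH2R rose by 1.25 ± 0.25 (adjusted p = 0.001) in siACL cells and fell in siMock cells (-0.75 ± 0.25, adjusted p = 0.032), a difference of 2.00 ± 0.36 (adjusted p = 0.0021).

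Other genes rose late in siMock cells and less, or not at all, in siACL cells. CDH13, an anchored cadherin, scored -3.90, -3.55 and -3.90 and then -0.022, 0.087 and 0.011 in siMock cells, and -3.90, -3.90 and -3.73 and then -2.48, -1.92 and -2.25 in siACL cells. Its steps differed by -2.18 ± 0.22 (adjusted p = 1.4e-05), and on percentile ranks, which compress this end of the scale, the siACL rise was not called. FAM174B behaved alike, with 0.083, 0.06 and -0.055 in siMock and -1.31, -1.82 and -2.11 in siACL cells at 5 mM and a difference of -1.42 ± 0.27 (adjusted p = 0.0038). The seminal protein gene SEMG1 rose by 1.04 in siACL and 2.47 in siMock cells, a difference of -1.43 ± 0.37 (adjusted p = 0.028). The protease gene UFSP1 rose from -2.01, -2.26 and -2.40 to 0.0012, -0.36 and -0.20 in siMock arrays and was not called in siACL cells, and ZNF354A did likewise, with differences of -2.09 ± 0.27 (adjusted p = 0.00014) and -1.99 ± 0.40 (adjusted p = 0.005).

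A last set was called as falling in 1 arm. S100A2 and ZBED2 fell in siACL cells from a level that siMock cells did not have, with differences of -2.31 ± 0.57 (adjusted p = 0.02) and -1.79 ± 0.39 (adjusted p = 0.0094), and the steroid dehydrogenase HSD11B2 fell (-1.08 ± 0.25, adjusted p = 0.0029), a difference of -1.39 ± 0.35 (adjusted p = 0.023). The centriolar gene CEP76 and the RNA- and DNA-binding FUBP1 fell in siMock cells (-1.40 ± 0.30, adjusted p = 0.0015) and -0.96 ± 0.25 (adjusted p = 0.0079), with differences of 1.56 ± 0.42 (adjusted p = 0.032) and 1.32 ± 0.36 (adjusted p = 0.034). CDCA1, an entry for the kinetochore gene NUF2, fell in siMock cells (-2.28 ± 0.31, adjusted p = 2.4e-05) with a difference of 1.51 ± 0.44 (adjusted p = 0.049), and a second entry named NUF2 fell in siACL cells (-0.25 ± 0.047, adjusted p = 0.00063). Leaving out 1 of the 12 arrays ended the call of the difference for S100A2 (without replicate 1 of siMock at 2 mM, adjusted p = 0.0505), and for CEP76, CDCA1, FUBP1, SEMG1 and HSD11B2 with 8, 9, 8, 8 and 5 of the arrays, at adjusted p up to 0.0806, 0.121, 0.0879, 0.0772 and 0.0633.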

How the data were processed

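Total RNA of 24 cultures was labelled with biotin and hybridised to Illumina arrays, per the labels' protocols. The deposited values were used as given by the authors: a score for each of 20747 entries and array, which departs from normal quantiles of within-array ranks by at most 0.000744. No label names the software or the background correction. Another deposited table of scanner values has 48 columns that the labels tie to no sample. These were not used, apart from the gene annotation, so signal over background is unknown.

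Of the entries, 18172 carry a gene symbol and entered the tests, and 2575 carry none and did not, with no filter on low scores. Current symbols and promoters come from RefSeq (GRCh38.p14), with 12258 genes matched by accession, 969 by symbol and 519 by a synonym, and 4426 unmatched and named as in the files. At most 0.248% of values were identical between any 2 arrays.

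The 8 group means came from limma 3.58.1 (R 4.3.3), fitted to all 24 arrays (residual degrees of freedom 16, prior 1.05), without a block. The design foresaw log2 signals, but the deposited unit is a score, so the same tests ran on scores. On simulated data with 200 changed genes, siACL step differences of 0.25, 0.5 and 1 were recovered for 44.8%, 64.2% and 77.3%, and 2.36% of the calls were of unchanged genes. For the difference of the steps that share was 4.27%. These simulations changed far fewer genes than the 28.5% called in the siACL step, with noise independent between genes. Neither the recovery nor the share of unchanged calls therefore carries over to these data. The p-values measure the spread between cultures that the labels call biological replicates, and no culture dates or slides are given there.

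The comparison, the gene lists and the genes named were chosen with earlier results of these data known. The naming rule takes ACLY, CDKN1A, MYC, SLC16A1 and ACSS2, the 15 largest rises and 15 largest falls of the siACL step that were called and did not overlap, the 8 largest differences between the steps each way, and the largest called members of each list, trimmed for length. Other list members, such as the cholesterol enzymes, EBNA1BP2, MTF1, SLC30A1, SLC25A1 and second entries of a gene, were named after their values were seen. A few genes held by the rule or the lists enter the counts but are not reported here by name. GSN, which the rule also names, was not analysed here. Promoters were searched for fixed letters from 250 bases before to 50 after the start. Alternatives were percentile ranks, weighting of arrays, fits limited to the compared arrays, a robust prior with a trend, the replicate number as a block, stricter thresholds, inclusion of unnamed entries, restriction to mean scores above 0, and leaving out each array in turn. The sterol element was searched for after the data were seen.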

Additional observations from a re-analysis of the deposited data

Results flagged for a closer look

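The steps from 2 to 5 mM in siACL and siMock cells were compared by the interaction term of the limma fit, and the genes below were past an adjusted p of 0.05 for the difference, given as siACL minus siMock with its standard error. The number of siACL and siMock arrays was 3 at each dose.

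Among genes with a higher step in siACL cells and among the largest differences, the difference was 1.94 ± 0.38 for DKK4, 2.00 ± 0.36 for PTH2R, 1.67 ± 0.38 for CLDN1 and 1.57 ± 0.31 for SYP. It was 1.56 ± 0.42 for CEP76, 1.51 ± 0.44 for CDCA1, 1.42 ± 0.33 for RGS9 and 1.32 ± 0.36 for FUBP1.
Among genes with a lower step in siACL cells and among the largest differences, the difference was -1.42 ± 0.27 for FAM174B, -2.31 ± 0.57 for S100A2, -1.79 ± 0.39 for ZBED2 and -2.18 ± 0.22 for CDH13. It was -2.09 ± 0.27 for UFSP1, -1.99 ± 0.40 for ZNF354A, -1.43 ± 0.37 for SEMG1 and -1.39 ± 0.35 for HSD11B2.
Among acetyl-CoA, sterol and fatty acid genes with a lower step in siACL cells, the difference was -0.21 ± 0.031 for ACLY, -0.29 ± 0.029 for ACSS2, -0.16 ± 0.031 for SREBF1 and -0.23 ± 0.059 for INSIG1. It was -0.22 ± 0.057 for FASN, -0.28 ± 0.035 for ELOVL6 and -0.46 ± 0.042 for HMGCS1.
Among mitosis genes with a higher step in siACL cells, which fell in both arms, the difference was 0.42 ± 0.041 for CCNB2 and 0.35 ± 0.046 for KIF20A. It was 0.33 ± 0.034 for HMMR, 0.35 ± 0.032 for UBE2C and 0.29 ± 0.045 for CENPA.
Among signalling, transport and cell cycle genes with a higher step in siACL cells, the difference was 0.34 ± 0.04 for CTGF and 0.23 ± 0.043 for CYR61. It was 0.30 ± 0.045 for SLC2A3, 0.25 ± 0.034 for CCND3 and 0.68 ± 0.14 for CDKN2A.
Among regulators with a lower step in siACL cells, the difference was -0.23 ± 0.042 for PPRC1, -0.30 ± 0.039 for NFKBIA, -0.33 ± 0.05 for LTBR and -0.24 ± 0.034 for KLF6. It was -0.24 ± 0.031 for KLF13, -0.73 ± 0.13 for KLF11, -0.35 ± 0.082 for ATF5, -0.25 ± 0.044 for DDIT4 and -0.21 ± 0.046 for BAX.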

How the results depend on the processing

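No gene named in the text reversed its direction under any alternative run. The count of called genes in the siACL step was 3327 in a fit of only the arrays compared and 1529 with a minimum difference of 0.25, against 5183, and the other alternatives stayed within 1.5 times. Without single arrays it was 4345 to 4630. In the siMock step the count was 2692 on only the arrays compared, 3535 at an adjusted p under 0.01 and 1651 with the minimum difference, against 5315, and 4578 to 4669 without single arrays. For the difference of the steps it was 520, 518 and 404 under these alternatives, against 1182, and 886 to 1064 without single arrays. At least 4177, 4281 and 842 of the genes called in the 3 comparisons were called again in the same direction when 1 array was left out. Fewer arrays give fewer degrees of freedom, and the stricter rules call fewer genes by construction. On percentile ranks the siACL rises of CDH13, MT2A and MT1A and the differences of CEP76, CDCA1, RGS9, FUBP1, INSIG1, FASN and DDIT4 were no longer called. On only the arrays compared, the differences of DKK4, S100A2, ZBED2, CLDN1, CDCA1, RGS9, FUBP1, SEMG1, HSD11B2, INSIG1, FASN, ATF5, CDKN2A and BAX were not called, nor were the siACL steps of SERPINF2, HSH2D, ALDH3B1, SEMG1, HSD11B2, HDAC3, CDH1, CDX2, KRT18, KLF11, KLF13, MTF1 and SLC30A1. Falls of the cholesterol list in siACL cells numbered 20 or 21 without single arrays, on percentile ranks and in a fit of the 6 arrays. The same held with array weights, the replicate block or the robust prior with a trend. That range does not cover the stricter thresholds. The minimum difference of 0.25 calls fewer, because the median of the list was -0.239. With the replicate number as a block the siACL step called 5101 genes, 4974 of them shared. Same-numbered arrays of the siACL groups deviated together only at r = 0.00627 to 0.0622, so little effect shared by number was seen. Whether same-numbered cultures were handled together cannot be told from this. The scanner-table alternative was not run because its columns are tied to no sample. Genes with low scores are limited by their spread, and changes at the top of the array by the lack of room in ranks.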

Other observations

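TCACNCCAC was the only spelling of the sterol regulatory element searched for. It was found in 1 of the 23 promoters of the cholesterol list at hand (4.35%), that of SREBF2, against 1.15% of all 27305 promoters. Other spellings and bases outside the window were not searched, so the other promoters cannot be said to lack the element. GGGCGG was found in 91.3% of the cholesterol promoters against 44.6% of all. It was also found in 71.4% of the spindle and kinase promoters and in all 5 metallothionein promoters at hand. Among further groups, 8 of 21 immediate early genes rose and 3 fell in siACL cells, beside 14.2% and 14.3% of all genes. The phosphatase gene DUSP1 rose by 0.31 ± 0.038 (adjusted p = 8.3e-06), and SPRY4 and PHLDA1, feedback genes of MAPK signalling, fell, with differences of -0.33 ± 0.029 (adjusted p = 1.9e-07) and -0.33 ± 0.025 (adjusted p = 4.1e-08). Of 26 amino acid transporters 4 rose and 5 fell, close to those shares of all genes, and the glutamate carrier SLC1A3 was among the falls, with -0.65 ± 0.097 (adjusted p = 6.4e-05). Hypoxia targets counted 3 rises and 6 falls of 15 (3 falls in a fit of the 6 arrays), with BHLHB2 (now BHLHE40) at -0.60 ± 0.029 (adjusted p = 2.7e-10). Aminoacyl-tRNA synthetases counted 6 rises and 10 falls of 32 (3 falls in a fit of the 6 arrays), with RARS (now RARS1) at 0.20 ± 0.021 (adjusted p = 1.5e-06).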
